A study of Homo sapiens with 8 samples.

Results

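RNA polymerase II (Pol II) cannot find a promoter alone. It is loaded by general initiation factors, of which TFIID, made of the TATA-binding protein TBP and its associated factors (TAFs), binds the promoter first, followed by TFIIA, TFIIB, TFIIF and TFIIE. Mediator, a large complex built as a head, a middle, a scaffold and a tail, bridges activators bound at enhancers to the polymerase. The kinase CDK7, a subunit of the initiation factor TFIIH, phosphorylates the tail of the largest Pol II subunit once these parts are assembled. The genes described here encode the parts other than TFIIH: the 12 Pol II subunits, 7 subunits of TFIIA, TFIIB, TFIIE and TFIIF, TBP with 14 TAFs, and 26 Mediator subunits. They were taken by gene symbol from the deposited tables, leaving out the kinase module genes MED12 and MED13, which gave 60 genes of 23843. Where a symbol had several transcripts (14 of the 60) the transcript with the highest mean count stood for the gene. All 60 passed the filter on low counts and were among the 15694 genes tested.

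The cells were HCT-116, an established human colorectal cancer line, and RNA came from 8 libraries in 4 groups of 2. Every group had a first medium for 12 h, a wash, and a second medium for 4 h. The groups were DMSO and DMSO (the solvent control), 5-FU and DMSO (40 µM 5-fluorouracil, an inhibitor of thymidylate synthase, first), DMSO and 3-MB-PP1 (2.5 µM of this bulky ATP analogue second), and 5-FU and 3-MB-PP1. The series asks how activating the p53 program bears on the response of cancer cells to CDK7 inhibitors. The labels do not say which kinase allele the cells carried to accept 3-MB-PP1, nor whether the 2 libraries of a group came from separate cultures, so p-values measure the spread between these libraries, which may be technical.

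Libraries held 10571755 to 50459889 gene counts, the deepest being DMSO and 3-MB-PP1 replicate 1, and log CPM correlated at 0.993 to 0.994 across genes within a group. The epithelial markers EPCAM, KRT8, KRT18 and KRT19 were high, at 97.0 RPKM or more in every library, while CDX1 was at 0, CDH1 stayed at 4.46 RPKM or less, and VIL1 stayed at 0.113 RPKM or less. Summed over 8 epithelial markers the level was 1524 to 1591 RPKM after DMSO and DMSO, 2760.3 to 2793 after 5-FU and DMSO, 1640.3 to 1661 after DMSO and 3-MB-PP1, and 2409 to 2426 after both drugs. The markers of stroma, blood and endothelium summed to 3.82 to 5.06 RPKM over 10 genes, with COL1A2, DCN, LUM and CDH5 at 0. Most of that sum came from COL1A1, at 2.003 to 3.39 RPKM, and PECAM1, at 1.09 to 1.66. The part of the epithelial shift in the results below was not tested.

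The promoters of some members called with 3-MB-PP1 are shown first: POLR2A and TAF3, which rose, and MED11 and MED19, which fell, both without and after 5-FU. Sequences are from RefSeq (GRCh38.p14), read 5′ to 3′ on the gene's strand, from the 250 bases upstream of the start site and limited to the longest run outside exons annotated in GENCODE v29. Capitals mark matches to the motifs searched on both strands: the TATA box TATAAA, the CCAAT box CCAAT, the GC box GGGCGG, the ETS motif CCGGAAG, the E-box CACGTG, the E2F motif TTTCCCGC, the cyclic AMP response element TGACGTCA and the palindromic NRF1 motif, which none of the stretches shown holds.
POLR2A, chr17:7484264-7484365, plus strand: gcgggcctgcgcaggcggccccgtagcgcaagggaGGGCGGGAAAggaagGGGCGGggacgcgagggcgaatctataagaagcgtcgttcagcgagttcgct
TAF3, chr10:7818255-7818503, plus strand: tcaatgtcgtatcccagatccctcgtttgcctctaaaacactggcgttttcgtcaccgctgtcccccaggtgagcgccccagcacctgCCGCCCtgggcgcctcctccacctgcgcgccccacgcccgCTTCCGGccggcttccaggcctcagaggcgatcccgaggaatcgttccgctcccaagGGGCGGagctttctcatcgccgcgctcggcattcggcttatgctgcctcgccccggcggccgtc
MED11, chr17:4731178-4731427, plus strand: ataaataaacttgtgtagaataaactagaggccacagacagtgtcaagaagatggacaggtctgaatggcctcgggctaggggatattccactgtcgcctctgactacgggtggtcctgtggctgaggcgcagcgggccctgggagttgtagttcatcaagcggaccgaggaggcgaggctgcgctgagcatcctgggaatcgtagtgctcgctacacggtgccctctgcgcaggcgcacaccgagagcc
MED19, chr11:57712324-57712465, minus strand: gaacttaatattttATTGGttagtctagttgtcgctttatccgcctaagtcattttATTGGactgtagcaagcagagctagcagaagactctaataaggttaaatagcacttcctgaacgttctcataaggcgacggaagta
The POLR2A stretch held 2 GC boxes, the first of which overlaps an E2F match. TAF3 had 2 GC boxes and 1 ETS match, MED19 had 2 CCAAT boxes, and MED11 had none of these letters in its window. The full 250 bases of MED19, exons included, also held a GC box. The shares that follow are of the full 250 bases. Of the 45 members with a promoter in the RefSeq table, 14 (31.1%) held the ETS motif, against 8.82% of all 27305 promoters of the same length. The GC box was in 55.6% of the members' promoters and in 42.3% of all, the CCAAT box in 24.4% and 33.0%, and the TATA box in 6.67% and 11.1%. The E2F motif was found in 6.67% against 1.42%, the response element in 4.44% against 1.77%, the NRF1 motif in 4.44% against 1.13%, and the E-box in 6.67% against 6.49%. Median GC content was 58.0% for both. These matches are letters in a window and carry no measurement of binding. The background was not limited to genes expressed in these cells, so no share is shown to be particular to these complexes.

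All 60 genes had counts in every library (59 or more), and their levels followed the complexes. In DMSO and DMSO the median level per length was 56.3 RPKM for the 12 Pol II subunits, 37.6 for the 7 TFIIA, TFIIB, TFIIE and TFIIF subunits, 20.3 for the 15 TFIID genes and 11.6 for the 26 Mediator genes. The median of all genes tested was 7.24 RPKM, and 56 of the 60 lay above it. POLR2L, a small subunit shared by all 3 nuclear polymerases, was the highest at 113.5 ± 9.31 RPKM (SD, n = 2), followed by the second-largest subunit POLR2B at 94.7 ± 1.41. The libraries of these neighbours did not overlap. POLR2A, the largest and catalytic subunit, was the lowest of the 12 in DMSO and DMSO at 22.9 ± 2.40 RPKM, and its libraries overlapped with those of the next, POLR2F (25.7 ± 1.79), a subunit shared by the polymerases. Among initiation factors the TFIIF subunits GTF2F2 (71.3 ± 1.14) and GTF2F1 (68.5 ± 2.87) were highest and overlapped, and the TFIIE subunit GTF2E1 was lowest at 10.8 ± 1.00. Within TFIID the levels ran from TAF9 (65.8 ± 3.61) and TAF10 (58.6 ± 6.75), both also SAGA subunits, to TAF1 (7.71), TAF4 (7.58) and TAF3 (5.90 ± 0.822). MED6 led Mediator at 38.4 ± 2.20 RPKM, while MED7, MED26 and the head subunit MED22 (6.18 ± 0.313) ended it.

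**Figure D1:**
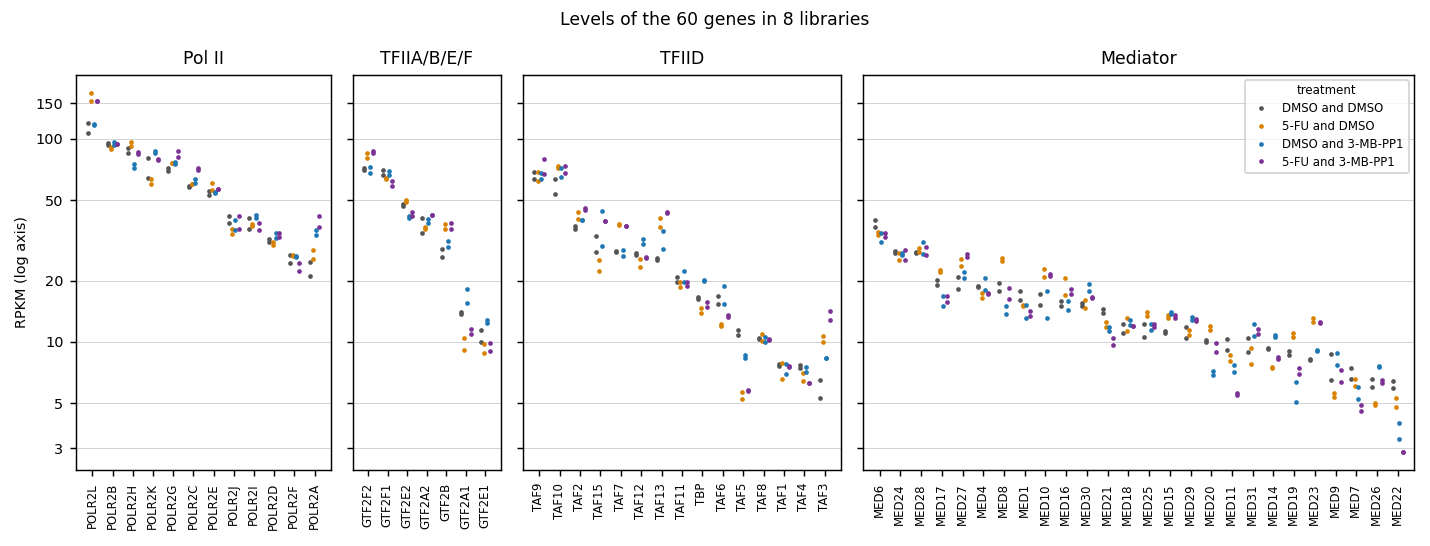
Level of each of the 60 genes (x axis, ordered within a complex by the mean after DMSO and DMSO) in RPKM on a log axis. Each point is 1 library, coloured by treatment, and the Pol II subunits sit highest (median 56.3 RPKM) and Mediator lowest (11.6 RPKM), while MED22 drops below 3 RPKM after both drugs.

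Between treatments the group means of these genes spread less than those of all genes tested, in a comparison not matched on level. The highest group mean exceeded the lowest by a median of 1.26-fold for the 60 genes and 1.39-fold for all genes tested. The ratio was under 1.2 for 21 of the 60 (35.0%, against 20.6% of all genes) and over 1.5 for 14 (23.3%, against 39.6%). It was lowest for MED28 and TAF8, both at 1.03, and passed 2 for the TFIID subunits TAF3 (2.24) and TAF5 (2.08) and for MED22 (2.20). Pol II was the steadiest of the 4 complexes by this median (1.17), with POLR2B at 1.07, and Mediator the least steady (1.37).

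3-MB-PP1 alone was compared with DMSO to see what the kinase ligand did in 4 h. POLR2A rose and genes of the Mediator head fell, and the other complexes changed in few members. Of the 60 genes 18 passed (6 rose and 12 fell, 30%), near the 28.5% of all genes tested (11.6% rose and 16.9% fell), at an adjusted p under 0.05 from edgeR's quasi-likelihood test with Benjamini-Hochberg adjustment over all genes. The members' median change was 0.011 on the log2 scale, beside -0.012 for all genes. The libraries of the 2 groups lay apart for 36 of the 60 genes, and for 62.5% of all genes tested. Changes are relative to the other genes (TMM scaling), and in RNA from bulk cultures fewer expressing cells and less RNA per cell cannot be told apart.

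POLR2A stood at 169.9 and 147 CPM (counts scaled by TMM to a common library size) in the solvent control and at 227 and 237 with 3-MB-PP1 alone. After 5-FU it stood at 190.3 and 175, and with both drugs at 282 and 248. Every library with 3-MB-PP1 lay above every library without it. The log2 fold change was 0.55 (SE 0.07, adjusted p = 9.3e-07) without 5-FU and 0.54 (SE 0.07, adjusted p = 1.08e-06) after it. On hg19 the gene lies on chromosome 17 from 7387698 to 7417935. No other subunit specific to Pol II passed with 3-MB-PP1 alone, POLR2B being at -0.05 and POLR2C, the partner of POLR2J in the assembly core, at 0.04. POLR2C read 107 and 109 CPM after DMSO and DMSO, 108 and 109 after 5-FU, 109 and 114 after 3-MB-PP1 and 131 and 127 after both drugs. Its 2 highest libraries were those with both drugs, and it rose with 3-MB-PP1 after 5-FU (0.25, SE 0.06, adjusted p = 0.00158). The test of the difference between its changes did not pass (interaction 0.21, SE 0.08, adjusted p = 0.161).

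Of the 5 subunits that Pol II shares with Pol I and Pol III, 2 passed with 3-MB-PP1 alone. POLR2H went from 75.7 and 71.3 to 58.97 and 61.4 CPM and fell (-0.29, SE 0.06, adjusted p = 0.00111), its libraries lying apart. POLR2K went from 63.4 and 80.2 to 82.99 and 83.9 CPM and rose (0.21, adjusted p = 0.0391). Its control libraries differed, and the call was lost without DMSO and DMSO replicate 1 and without either DMSO and 3-MB-PP1 library. After 5-FU, POLR2K rose from 58.1 and 62.7 to 77.05 and 77.6 CPM (0.36, adjusted p = 0.00137), and that call held without each library in turn. POLR2H did not pass there (-0.15).

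The Mediator head, which contacts Pol II, held the most falls. Of its 7 genes 6 fell with 3-MB-PP1 alone and none rose (median -0.45), where 16.9% of all genes tested fell. After 5-FU, 5 of the 7 fell and none rose (median -0.46), where 17.2% of all genes fell. At an unadjusted p under 0.05 edgeR likewise gave 0 rises in both comparisons, and so did DESeq2 and limma. Scaled to the ERCC spike-ins, 6 and 7 of the 7 lay below 0, with medians of -0.22 and -0.57, while the median of all genes moved to 0.189 and -0.115, and no gene of the head passed.

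MED22, a head subunit paired with MED11, fell most of the 60 genes with 3-MB-PP1, without and after 5-FU. It read 23.6 and 25.4 CPM in the solvent control, 20.5 and 18.8 after 5-FU, 12.8 and 15.2 with 3-MB-PP1 only and 11.2 and 11.1 with both drugs. All 4 libraries with 3-MB-PP1 lay below all 4 without it. The log2 fold change was -0.85 (SE 0.11, adjusted p = 1.14e-06) without 5-FU and -0.82 (SE 0.12, adjusted p = 1.08e-05) after it. The gene lies on chromosome 9 from 136207755 to 136214972 on hg19, and its 2 listed transcripts had log2 ratios of the authors' RPKM of -0.63 and -0.76 without 5-FU and -0.82 each after it.

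MED20, which sits with MED18 at the movable jaw of the head, read 25.5 and 25.9 CPM after DMSO and DMSO and 17.1 and 17.6 after 3-MB-PP1 (-0.58, SE 0.09, adjusted p = 3.47e-05). After 5-FU it read 29.6 and 28.8 and, with 3-MB-PP1 added, 24.5 and 22.02 CPM (-0.33, adjusted p = 0.00792). Its 2 lowest libraries were those of 3-MB-PP1 alone. MED18 itself read 21.3 to 24.5 CPM over all 8 libraries and did not pass in any comparison.

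MED17, the central subunit of the head, read 68.3 and 72.4 CPM after DMSO and DMSO and 52.4 and 58.2 after 3-MB-PP1 (-0.37, adjusted p = 0.000197). After 5-FU it read 78.4 and 78.3 and with 3-MB-PP1 added 55.3 and 58.9 (-0.46, adjusted p = 1.58e-05), again with no overlap. MED8 changed by -0.45 and -0.55 and MED11 by -0.47 and -0.59 in the same comparisons, all 4 passing. Exons of other annotated genes cover 41.9% of all exonic bases annotated for MED17 in GENCODE v29 and 36.9% of those for MED11. MED6, from 54.9 and 50.7 to 41.6 and 46.01 CPM, fell with 3-MB-PP1 alone (-0.29) and read 46.5 and 45.8 and 46.8 and 44.3 without and with it after 5-FU (-0.02, adjusted p = 0.876). The interaction for MED6 did not pass (0.27, SE 0.11, adjusted p = 0.162). Without DMSO and 3-MB-PP1 replicate 1 the head kept 3 of its 6 falls (MED6, MED8 and MED11 missed), and without DMSO and DMSO replicate 1 it kept 4 (MED6 and MED11 missed). In the second comparison it kept 3 of 5 without 5-FU and 3-MB-PP1 replicate 2, and DESeq2 also gave 3 there.

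**Figure D2:**
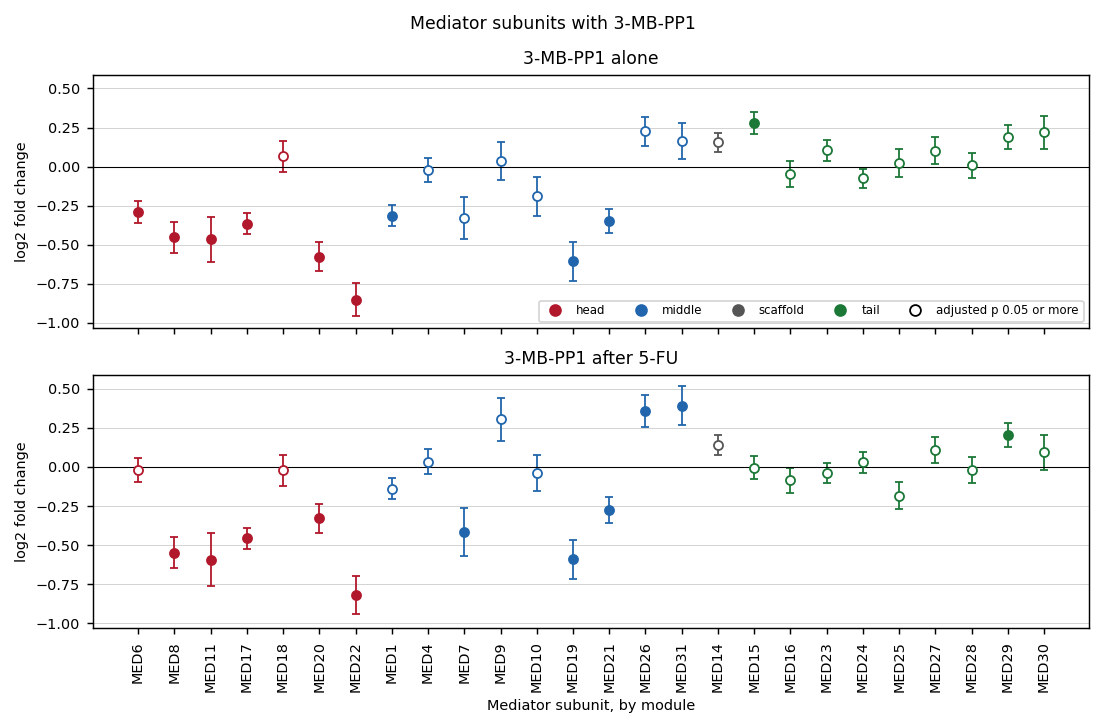
Log2 fold change (y axis, bars ± SE) of the 26 Mediator genes (x axis, grouped as head, middle, scaffold and tail) with 3-MB-PP1 alone (top) and after 5-FU (bottom). Filled points passed at an adjusted p under 0.05, and the head holds 6 and 5 filled points below 0 while no tail gene is filled below 0.

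In the 9 genes of the middle module, 3 fell and none rose with 3-MB-PP1 alone by edgeR (4 and 1 at an unadjusted p under 0.05), while limma called 1 rise and DESeq2 none. Over all genes tested 16.9% fell and 11.6% rose. After 5-FU 3 of the 9 fell and 2 rose, beside 17.2% and 15.7% of all genes, and with the spike-in scaling 4 and 6 of the 9 lay below 0. MED19, a subunit that binds the repressor REST, went from 13.4 and 14.03 to 9.54 and 7.62 CPM without 5-FU (-0.61, SE 0.12, adjusted p = 0.000524) and from 16.7 and 16.3 to 10.6 and 11.3 after it (-0.59, SE 0.13, adjusted p = 0.000754). All libraries with the ligand were lower. MED21, which forms the hinge of the module with MED7, fell by 0.35 and 0.28. MED1, the contact of nuclear receptors, went from 149 and 134 to 107 and 123 CPM (-0.32, adjusted p = 0.00071) and did not pass after 5-FU (-0.14), and its interaction did not pass (0.18, adjusted p = 0.334). The MED1 call was lost with limma and without DMSO and 3-MB-PP1 replicate 1. MED7 read -0.33 and -0.42, and passed only in the comparison made after 5-FU (adjusted p = 0.0374). That call was lost without each of the 4 libraries compared and with DESeq2, and the interaction did not pass (-0.09, adjusted p = 0.877).

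MED26, which recruits elongation factors, read 19.6 and 21.5 CPM after DMSO and DMSO, 15.6 and 16.1 after 5-FU, 24.00 and 24.1 after 3-MB-PP1 and 20.7 and 19.9 after both drugs. Its 5-FU libraries were lowest and its 3-MB-PP1 libraries highest. It rose with 3-MB-PP1 after 5-FU (0.36, adjusted p = 0.00962), as did MED31 (0.39, adjusted p = 0.0156). Each of these 2 calls missed the threshold without 5-FU and 3-MB-PP1 replicate 1 and without 5-FU and DMSO replicate 1, and with DESeq2. Exons of other annotated genes cover 58.9% of all exonic bases annotated for MED26 in GENCODE v29 and 70.8% of those for MED31, which lies opposite TXNDC17. Neither passed with 3-MB-PP1 alone (0.23 and 0.17).

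The scaffold gene MED14, the backbone that joins the modules, did not pass with 3-MB-PP1 (0.16 and 0.14). Of the 9 tail genes, which receive most activators, only MED15 rose with 3-MB-PP1 alone (0.28) and only MED29 rose after 5-FU (0.20, adjusted p = 0.0441). None fell, also at an unadjusted p under 0.05 in edgeR, DESeq2 and limma. The MED15 call was lost without DMSO and DMSO replicate 1 or DMSO and 3-MB-PP1 replicate 1, and the MED29 call without 3 of the 4 libraries compared. Across the 26 Mediator genes the change with 3-MB-PP1 alone correlated with the log of the gene's genomic span at r = 0.50 (Spearman 0.52), and after 5-FU at 0.48 (0.49). Over all 60 genes these values were 0.26 and 0.27. They are descriptions over genes measured in the same libraries.

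TFIID moved in single members. TAF3, whose finger domain reads methylated histone tails, read 15.2 and 18.5 CPM after DMSO and DMSO, 27.9 and 30.4 after 5-FU, 23.2 and 23.1 after 3-MB-PP1 and 39.8 and 35.9 after both drugs. Each drug group lay above the control and both drugs together gave the highest libraries. It rose with 3-MB-PP1 alone (0.46, SE 0.10, adjusted p = 0.00137) and after 5-FU (0.38, SE 0.09, adjusted p = 0.00268). The first call was lost without DMSO and DMSO replicate 1, and the second without 5-FU and 3-MB-PP1 replicate 1. TBP went from 31.6 and 32.6 to 37.8 and 38.2 CPM with 3-MB-PP1 alone (0.24, adjusted p = 0.0191) and did not pass after 5-FU (0.10). GTF2A1, the TFIIA subunit that steadies TBP on DNA, rose by 0.22 with 3-MB-PP1 alone and read 0.20 after 5-FU (adjusted p = 0.0533). The calls of TBP and GTF2A1 with 3-MB-PP1 alone were lost with DESeq2 and without either DMSO and DMSO library. TAF1, the largest TFIID subunit, did not pass (-0.13 and 0.06). GTF2B, the single-chain factor TFIIB, did not pass either (0.12 and 0.01). GTF2E2, the small subunit of TFIIE, fell in both (-0.23 and -0.22).

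TAF15, a FET family RNA-binding protein found with TFIID, read 74.4 and 62.5 CPM after DMSO and DMSO, 48.9 and 56.2 after 5-FU, 64.6 and 96.2 after 3-MB-PP1 and 86.6 and 86.4 after both drugs. The libraries of 3-MB-PP1 alone lay far apart, replicate 1 between the controls and replicate 2 highest of all. The gene rose most of the 60 with 3-MB-PP1 after 5-FU (0.72, SE 0.12, adjusted p = 4.49e-05) and did not pass without 5-FU (0.17, SE 0.11, adjusted p = 0.277). The difference between these changes was 0.54 (SE 0.16, adjusted p = 0.0612). Without DMSO and 3-MB-PP1 replicate 2 it was 0.80 (adjusted p = 1.05e-05), and it also passed without the filter on low counts (0.53, adjusted p = 2.14e-05) and with a replicate block (0.55, adjusted p = 0.0438). It was 0.23 (adjusted p = 0.433) without DMSO and 3-MB-PP1 replicate 1, and 0.06 with the spike-in scaling.

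TAF9 was listed with 4 transcripts, and the RefSeq gene table assigns 2 of them to AK6, an adenylate kinase gene at the same locus. The transcript kept for TAF9 read 94.6 and 102 CPM after DMSO and DMSO and 92.6 and 98.1 after 3-MB-PP1, which overlapped (-0.05, adjusted p = 0.638). The authors' RPKM of the 2 AK6 transcripts changed by -0.40 and -0.38 with 3-MB-PP1 alone on the log2 scale and by -0.39 each after 5-FU.

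After 5-FU, 18 of the 60 genes again passed with 3-MB-PP1 (9 rose and 9 fell, 30%), beside 32.9% of all genes tested (15.7% rose and 17.2% fell). Libraries lay apart for 40 of the 60, and for 65.7% of all genes. The members' median was 0.021, beside 0.003 for all genes. This comparison and that of 3-MB-PP1 alone share no library. POLR2A, POLR2K and TAF3 rose in both, which is 50% of the 6 that rose alone and 33.3% of the 9 that rose after 5-FU. Another 8 fell in both, GTF2E2, MED8, MED11, MED17, MED19, MED20, MED21 and MED22, or 66.7% of 12 and 88.9% of 9. No gene passed in opposite directions, and the changes correlated at r = 0.82 across the 60 genes (Spearman 0.70). These shares and this correlation are not given for all genes tested, so the agreement is not shown to be particular to the 60. The pattern is that of the plot of both changes, where POLR2A and MED22 lie near the line of equal change and TAF15 and TAF5 off it.

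**Figure D3:**
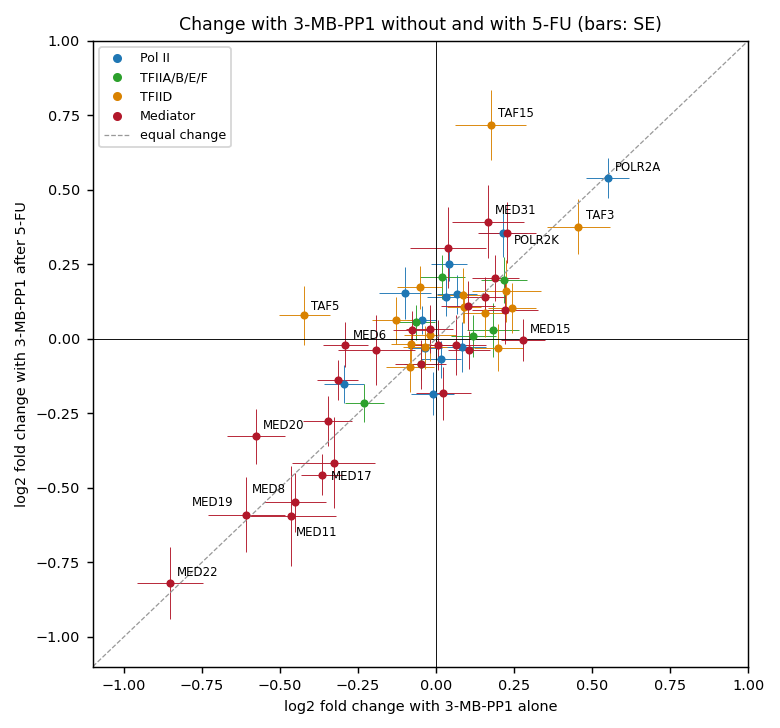
Log2 fold change with 3-MB-PP1 alone (x axis) and after 5-FU (y axis) for the 60 genes, coloured by complex, with SE bars and a dashed line of equal change. MED22 (-0.85 and -0.82) and POLR2A (0.55 and 0.54) lie near the line, while TAF5 (-0.42 and 0.08) and TAF15 (0.17 and 0.72) lie above the line.

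For 3-MB-PP1 alone 8 calls held in all 15 alternatives besides the spike-in scaling: POLR2A, POLR2H, TAF5, MED17, MED19, MED20, MED21 and MED22. The other 10 were lost in at least 1, with 7 lost without DMSO and DMSO replicate 1 (adjusted p 0.051 to 0.677) and 7 without DMSO and 3-MB-PP1 replicate 1 (0.0591 to 0.209). Without DMSO and DMSO replicate 1 the count was 11, with 1 rise. After 5-FU, 8 calls held in the same way: POLR2A, POLR2C, POLR2K, TAF15, MED8, MED17, MED19 and MED22. DESeq2 called 10 of the 60 there (5 rose and 5 fell), and leaving out 5-FU and 3-MB-PP1 replicate 1 gave 12, with 8 of the 18 lost (0.0647 to 0.143).

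5-FU alone was compared with DMSO to see the effect of the antimetabolite, and it moved members of every complex in both directions. Of the 60 genes 32 passed (16 rose and 16 fell, 53.3%), beside 43.9% of all genes tested (21.2% rose and 22.6% fell). The members' median change was -0.035, beside 0.00271 for all genes. The libraries lay apart for 45 genes, and for 69.5% of all genes tested. TFIID held 10 of the calls among its 15 genes (5 rose and 5 fell), Mediator 14 of 26 (7 and 7), the other initiation factors 4 of 7, and Pol II 4 of 12.

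TAF5, a WD-repeat scaffold of TFIID, fell most. It read 38.1 and 36.2 CPM after DMSO and DMSO, 18.4 and 17.4 after 5-FU, 28.03 and 27.1 after 3-MB-PP1 and 19.00 and 18.8 after both drugs. The libraries with 5-FU were lowest, those of 3-MB-PP1 alone lay between them and the control, and no groups overlapped. The change with 5-FU was -1.06 (SE 0.09, adjusted p = 3.21e-10), that with 3-MB-PP1 alone -0.42 (SE 0.08, adjusted p = 0.000297), and that with 3-MB-PP1 after 5-FU 0.08 (adjusted p = 0.582). The last 2 differed by 0.50 (SE 0.13, adjusted p = 0.0227), and TAF5 was the only one of the 60 genes whose interaction of both drugs passed (1.67%, against 4.11% of all genes tested, 2.11% above and 2.0% below 0). On hg19 it lies on chromosome 10 from 105127724 to 105148822. The interaction missed the threshold without each of 6 of the 8 libraries (adjusted p 0.0539 to 0.122) and with DESeq2 (0.0995) and limma (0.0983).

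Other TFIID genes moved both ways with 5-FU. TAF3 rose most (0.79, SE 0.10, adjusted p = 6.55e-07). TAF13, one of the histone-fold TAFs, went from 15.3 and 15.02 to 21.1 and 23.7 CPM (0.57) and TAF7, an inhibitor of TAF1 activity, from 66.2 and 65.3 to 85.9 and 88.2 (0.41), both apart from the controls. TAF6, the histone-fold partner of TAF9, went from 43.6 and 47.4 to 33.7 and 33.7 CPM (-0.44). TAF15 fell (-0.38), as did TBP, from 31.6 and 32.6 to 27.99 and 26.8 CPM (-0.23, adjusted p = 0.027). TAF1 did not pass (-0.12).

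In the smaller initiation factors, GTF2B went from 44.03 and 48.4 to 62.2 and 59.8 CPM (0.40, SE 0.07, adjusted p = 5.99e-05) and GTF2A1 from 89.4 and 91.5 to 57.9 and 66.7 (-0.54, SE 0.08, adjusted p = 2.28e-06), in opposite directions. The TFIIF subunit GTF2F2 rose (0.19) and the TFIIE subunit GTF2E1 fell (-0.24). In Pol II the shared subunit POLR2L went from 95.8 and 108 to 148 and 136 CPM (0.48, SE 0.06, adjusted p = 8.85e-07). POLR2A rose by a smaller amount (0.21, adjusted p = 0.0169), POLR2J (-0.22) and POLR2K (-0.25) fell, and POLR2B (-0.10) did not pass. POLR2J has near-identical copies in the genome, which makes its count uncertain.

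Within Mediator 5-FU alone raised tail genes. Of the 9 genes assigned to the tail (also MED24, MED28, MED29 and MED30) 5 rose, MED15, MED16, MED23, MED25 and MED27, where 21.2% of all genes tested rose. None fell, also at an unadjusted p under 0.05 in edgeR, DESeq2 and limma. With the spike-in scaling all 9 lay above 0, 6 of them above the median of all genes, and none passed. MED23, a tail subunit that binds the activator ELK1, went from 44.1 and 43.9 to 68.5 and 66.6 CPM (0.62, SE 0.07, adjusted p = 2.59e-08). The control libraries nearly coincided and both 5-FU libraries were far above. MED27 changed by 0.31, MED16 by 0.25, MED25 by 0.24 and MED15 by 0.23, and only MED23 of the 5 passed without DMSO and DMSO replicate 1. The tail median was 0.23 with 5-FU alone. With 3-MB-PP1 second in both groups, the tail median with 5-FU was -0.004, with 4 genes above and 5 below 0. The test of the difference (interaction) passed for 0 of the 9 tail genes, where 4.11% of all genes tested passed. Its tail median was -0.037, with 0 rises and 1 fall at an unadjusted p under 0.05 in edgeR. With 5-FU alone the scaffold gene MED14 went from 64.9 and 64.3 to 50.4 and 51.7 CPM (-0.34, SE 0.07, adjusted p = 0.000136). In the middle module MED10 rose (0.40) and MED1 (-0.19), MED9 (-0.50), MED21 (-0.25) and MED26 (-0.37) fell. The control libraries of MED9 were 19.9 and 14.9 CPM, and its call was lost without replicate 1 of them. In the head MED8 went from 21.4 and 23.5 to 30.3 and 29.7 CPM and rose (0.42, adjusted p = 0.000959), MED6 and MED22 fell (-0.19 and -0.32), and MED17 did not pass (0.15).

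Of the 32 calls with 5-FU alone 11 held in all 15 alternatives besides the spike-in scaling: POLR2L, GTF2A1, GTF2B, TAF3, TAF5, TAF6, TAF7, TAF13, MED8, MED14 and MED23. Without DMSO and DMSO replicate 1 the count was 17 and 15 of the 32 were lost (adjusted p 0.0578 to 0.325). DESeq2 called 21 (14 rose and 7 fell).

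**Figure D4:**
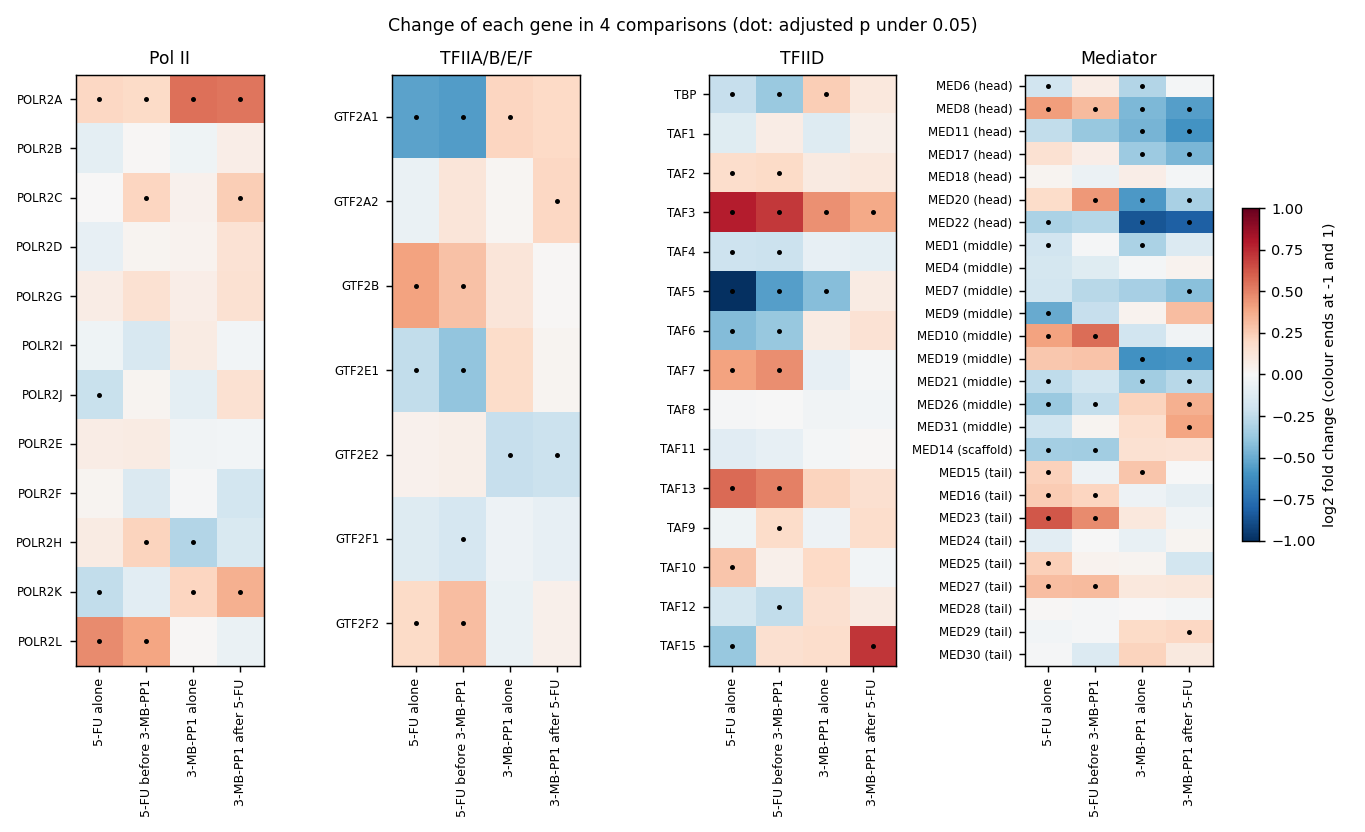
Log2 fold change (colour, red higher and blue lower, ending at -1 and 1) of the 60 genes (rows, by complex) in 4 comparisons (columns), with a dot where the adjusted p was under 0.05. Of the 7 head genes 6 are below 0 with 3-MB-PP1 alone, MED18 being at 0.06, and all 7 after 5-FU, while TAF3 is red with dots in all 4 columns.

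5-FU before 3-MB-PP1, the comparison of both drugs with 3-MB-PP1 alone, gave 27 calls among the 60 genes (17 rose and 10 fell, 45.0%), beside 39.5% of all genes tested (19.7% rose and 19.9% fell). Libraries lay apart for 42 of the 60, and for 67.9% of all genes. The members' median was 0.027, beside 0.00244. It shares no library with the comparison of 5-FU alone. In both, 13 genes rose (81.3% of 16 and 76.5% of 17) and 8 fell (50% of 16 and 80.0% of 10), with none passing in opposite directions and r = 0.86 across the 60 genes (Spearman 0.82). These values are likewise not given for all genes tested. TAF3 (0.71, adjusted p = 6.33e-07), TAF13 (0.50), TAF7 (0.47), MED23 (0.47) and POLR2L (0.39) rose again. GTF2A1 (-0.56, adjusted p = 1.12e-06), TAF5 (-0.55), TAF6 (-0.38), TBP (-0.37), GTF2E1 (-0.40) and MED14 (-0.35) fell again. Of the 9 Mediator tail genes 3 rose here (MED16, MED23 and MED27), and the tail median was -0.004, against 0.23 with 5-FU alone. The interaction passed for 0 of these 9 genes (median -0.037), beside 4.11% of all genes tested. MED10 went from 13.5 and 18.3 CPM without to 22.3 and 21.6 with 5-FU (0.56), its 3-MB-PP1 libraries being uneven. MED20 passed here (0.43, adjusted p = 0.000593) and not with 5-FU alone (0.18), and the difference between the 2 did not pass (interaction 0.25, SE 0.13, adjusted p = 0.324). Without DMSO and 3-MB-PP1 replicate 1, the deepest library, 18 genes passed and 11 of the 27 calls were lost (adjusted p 0.0617 to 0.295).

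**Figure D5:**
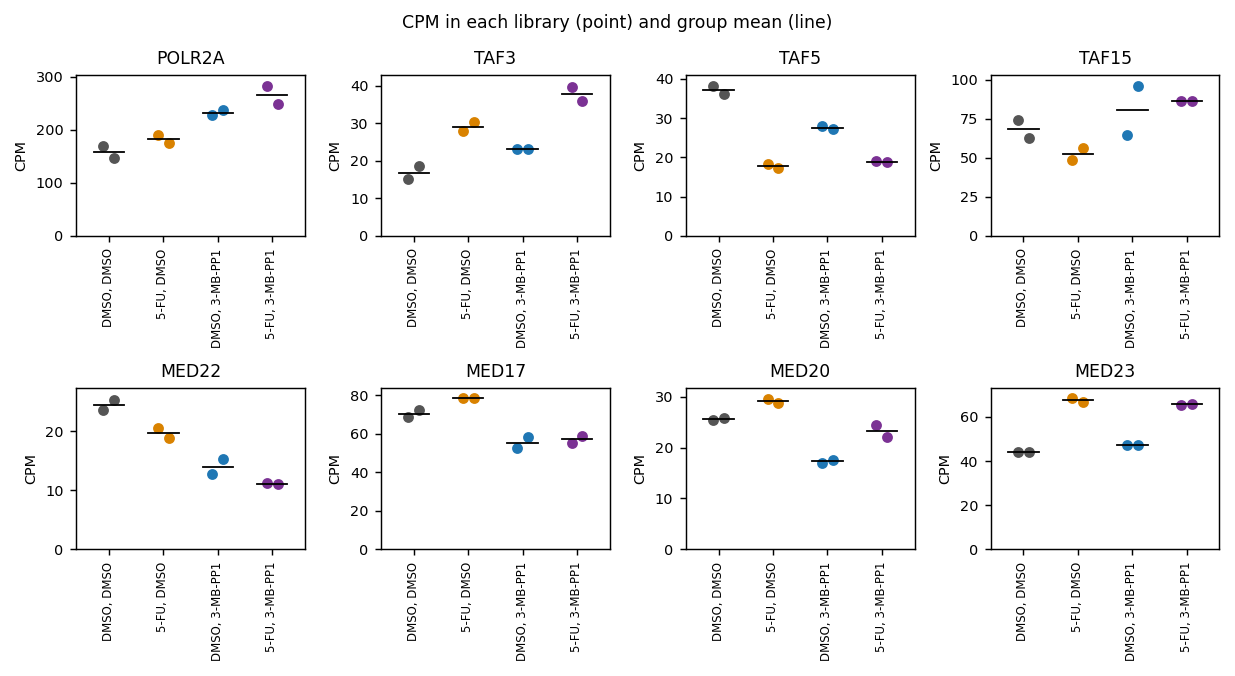
CPM (y axis from 0) of 8 members in each library (points, replicate 1 left) by treatment (x axis), with the group mean as a line. POLR2A and TAF3 climb to their highest values after both drugs, MED22 falls to 11.2 and 11.1 CPM there, TAF5 is lowest with 5-FU, and MED17 and MED20 are low with 3-MB-PP1.

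Over the 8 libraries the members most like POLR2A in log2 CPM were POLR2C (Pearson r = 0.79), TAF3 (0.69) and the Pol II stalk subunit POLR2G (0.68). These values describe 8 points in 4 treatments.

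Neighbouring machinery was counted from lists of related complexes. Over all genes tested 11.6% rose and 16.9% fell with 3-MB-PP1 alone, 15.7% and 17.2% with 3-MB-PP1 after 5-FU, and 21.2% and 22.6% with 5-FU alone. Of 19 subunits specific to Pol I or Pol III, none rose and 9 fell with 3-MB-PP1 alone, and none rose and 12 fell after 5-FU. At an unadjusted p under 0.05 edgeR gave 1 and 0 rises, and DESeq2 and limma called none higher. With the spike-in scaling the median of all genes moved from -0.012 to 0.189 for 3-MB-PP1 alone and from 0.003 to -0.115 after 5-FU. There the median of the Pol I and Pol III subunits turned from -0.17 to 0.04 for 3-MB-PP1 alone. It stayed below 0 after 5-FU (-0.45). Their 21 initiation factors gave 0 rises (0 at an unadjusted p under 0.05, and 0 called by DESeq2 and limma) and 10 falls, then 2 rises and 12 falls, and their median with 3-MB-PP1 alone turned to 0.06 with the spike-in scaling. In TFIIH, with 10 genes, 1 rose and 2 fell with 3-MB-PP1 alone, among the latter CDK7 (-0.42, and -0.51 after 5-FU, where 1 gene rose and 1 fell). None of 7 kinase module genes of Mediator passed with 3-MB-PP1 alone (edgeR; 1 rise and 1 fall at an unadjusted p under 0.05, none with DESeq2 or limma). After 5-FU 2 of them fell, MED13 (-0.22) and MED13L (-0.24), named after their values were seen. Of 24 pausing and elongation factors 4 rose and 2 fell, then 7 rose and 1 fell. SAGA subunits other than shared TAFs gave 4 rises and 4 falls among 16, then 3 and 4, and Integrator 1 and 4 among 12 in both. Paralogs of these subunits, with 9 of 11 tested, gave 0 rises (0 at an unadjusted p under 0.05, and 0 called by DESeq2 and limma) and 1 fall, then 1 and 2. With 5-FU alone 7 rose and 2 fell of the Pol I and Pol III subunits, 5 and 6 of their initiation factors, 1 and 3 of TFIIH, 2 and 3 of the kinase module, 6 and 7 of the elongation factors, 3 and 4 of SAGA, 1 and 2 of Integrator, and 1 and 1 of the paralogs.

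Counts of 26 members may hold reads of another gene, since exons annotated in GENCODE v29 overlap theirs and no source used here states whether counting used strand. The overlap is a share of a gene's exonic bases over all its transcripts in that annotation, not of the transcript counted. It passed 30% for POLR2I (72.0%, with TBCB and OVOL3), MED31 (70.8%), MED26 (58.9%), MED17 (41.9%), TAF10 (40.9%, ILK), MED11 (36.9%, CXCL16) and MED28 (32.4%, FAM184B). Of the 7 head genes, MED18 and MED20 overlap no other exon. MED20 fell in both 3-MB-PP1 comparisons and MED18 passed in neither (0.06 and -0.02), and the part of overlapping reads in the head's falls was not tested.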

How the data were processed

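Ribo-depleted total RNA of HCT-116 cells was sequenced from single ends in 8 libraries, 2 in each of 4 treatments. Reads were aligned with TopHat2 2.0.13 to hg19, per the submitters' processing notes; the counting program is not given in the sources used here, nor is its use of strand. The authors deposited a read count and an RPKM for each of 41735 sequences, 92 of them ERCC spike-ins (RNA added at known amounts). Of 41643 transcripts 6260 had no symbol, and accessions in the RefSeq gene table named 5902 of these. Each of 23843 genes was represented by its transcript of highest mean count; 11 transcripts without a symbol that matched a member were left out.

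The deposited counts were tested with edgeR 4.0.16 (R 4.3.3; TMM, filterByExpr, quasi-likelihood F test, 4 groups in 1 model with 4 residual degrees of freedom), with Benjamini-Hochberg adjustment over 15694 genes and a call at an adjusted p under 0.05. SE is the size of the log2 fold change divided by the square root of F. Levels are the authors' RPKM. Depth was 10571755 to 50459889 counts per library. On counts simulated for 3-MB-PP1 alone over 15500 genes, changes of 0.25, 0.5 and 1 on the log2 scale were recovered in 42.5%, 92.5% and 100% of 40 planted genes each. Far fewer genes were changed there than the 4469 called in the data. The adjusted threshold was thus stricter there, and recovery in the data was not measured. Alternatives were DESeq2 1.42.0, its size factors in edgeR, no count filter, spike-in scaling, only the groups compared, a replicate block, limma 3.58.1 on log2(RPKM + 0.1), the longest transcript per symbol, and leaving out each library.

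Genes named are POLR2A, POLR2B, GTF2B, TBP, TAF1, MED1, MED14, MED17 and MED26, up to 6 of the largest called rises and falls per comparison, the highest and lowest level per complex, and the 3 most like POLR2A; other members are named to complete a module, a shared call or a count, after their values were seen. The members and lists were chosen with earlier results of these data known. No protein sequence was used here.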

Additional observations from a re-analysis of the deposited data

Results flagged for a closer look

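The TFIID scaffold gene TAF5 was the only member whose difference between the 3-MB-PP1 responses without and after 5-FU passed. Its change with 3-MB-PP1 after 5-FU exceeded its change with 3-MB-PP1 alone by 0.50 on the log2 scale (edgeR's quasi-likelihood test, SE 0.13, adjusted p = 0.0227), a test of the difference itself. The call was lost in 9 of 15 alternatives: without each of 6 of the 8 libraries (adjusted p 0.0539 to 0.122), with DESeq2 (0.0995), with limma (0.0983) and with the spike-in scaling, where the difference was 0.17 (SE 0.69). It was at 37.2 CPM on average after DMSO and DMSO, 27.6 after 3-MB-PP1 alone, 17.9 after 5-FU alone and 18.9 after both drugs. Both libraries of 3-MB-PP1 alone lay below both controls. After 5-FU both libraries with 3-MB-PP1 (19.0 and 18.8 CPM) lay above both without it (18.4 and 17.4). The change after 5-FU did not pass, and libraries lay apart for 65.7% of all genes tested in that comparison.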

How the results depend on the processing

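With spike-in scaling, whose standard errors were about 0.49 on the log2 scale and about 0.69 for the interaction, 0 members passed in any of the 5 comparisons, also at an unadjusted p under 0.05, and the median of all genes shifted to 0.13 for 5-FU alone, 0.19 and -0.12 for 3-MB-PP1 without and after 5-FU, -0.19 for 5-FU before 3-MB-PP1 and -0.31 for the interaction. In 5-FU before 3-MB-PP1 it reversed POLR2A (-0.045), POLR2C (-0.015), POLR2H (-0.0032), TAF2 (-0.020) and TAF9 (-0.039). DESeq2 called 21 members for 5-FU alone (14 rose and 7 fell), 10 for 3-MB-PP1 after 5-FU and 0 for the interaction (3 at an unadjusted p under 0.05); limma called 0 for the interaction (4 unadjusted; edgeR 8), and no count filter gave 2. Leaving out 1 library gave 17 to 32 calls for 5-FU alone, 11 to 19 for 3-MB-PP1 alone, 12 to 20 for 3-MB-PP1 after 5-FU, 18 to 27 for 5-FU before 3-MB-PP1 and 0 to 2 for the interaction. The lowest counts for the first 2 came without DMSO and DMSO replicate 1 (17, and 11 with 1 rise and 10 falls). The cause was not tested.

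Replicate numbers marked no shared shift across genes: differences between replicates of any pair of groups correlated at -0.058 to 0.046. The labels do not say whether libraries of the same number were handled together. With a replicate block the counts were 32, 19, 20 and 27 in the 4 comparisons and 2 for the interaction. In the simulation, where far fewer genes changed than in the data, 42.5% of changes of 0.25 on the log2 scale were recovered. A member that missed the threshold near this size is not shown to be unchanged.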
